A study of Rattus norvegicus with 28 samples.

Results

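The killer cell lectin-like receptors are C-type lectin-like proteins of the cell surface, and 7 of their genes were looked up by name among the 35469 gene names of a rat expression array: Klra5, Klrb1a, Klrc1, Klrd1, Klre1, Klrg1 and Klrk1. Of these 7, 6 were found, each through 1 probe printed as 1 spot. The array annotation carried no gene named Klrc1, so Klrc1 has no value here. The set was chosen by measured values of these same samples, since Klra5 was picked out for one of the largest rises at 4 and 8 weeks after injury. The 4-week and 8-week differences from T0 are therefore given for every member as descriptions with no p-value, and so are the differences of Klra5 at 1 and 2 weeks, which share the T0 animals with them.

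The data were 28 one-colour arrays (7 groups of 4 adult female Sprague Dawley rats) of total RNA from a 1.5 cm piece of thoracic spinal cord, taken after saline perfusion. T0 was labelled sham, and the methods of the study call these animals uninjured. T1, T2, T4 and T8 were cords taken 1, 2, 4 and 8 weeks after a severe contusion (250 kdyn, Infinite Horizon impactor) at the level of thoracic vertebra T8, which shares its name with the 8-week group. In T1_NPC, neural progenitor cells (NPCs) had been injected beside the lesion right after the contusion and the cord was taken at 1 week, whereas in T2_NPC they had been injected at 1 week and the cord was taken at 2 weeks. The NPCs had been grown as neurospheres from injured spinal cords of adult rats. According to the methods of the study, care after surgery in all animals included FK-506 (tacrolimus), an immunosuppressant, at 1 mg/kg. Its start was set by the day of transplantation, and the sample records give the dose for T1_NPC and T2_NPC only. Where untransplanted rats had none, FK-506 and the transplanted cells cannot be told apart. Injured control rats were given medium without cells in an equal volume, according to the same methods. The tissue was a bulk sample of cord and lesion with every cell in it.

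Natural killer cells and some T cells carry these receptors, and some are also found on other leukocytes. The Ly49 proteins, encoded by the Klra genes in rodents, bind classical MHC class I molecules, and single members either inhibit or activate the cell. CD94, the product of Klrd1, pairs with the NKG2 proteins of the Klrc genes, while NKG2D, the product of Klrk1, recognises stress-induced ligands. Inhibitory members recruit phosphatases, and activating members signal through small adaptor proteins with kinases downstream of them.

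Since the receptors arose by gene duplication, which gene a value belongs to depends on the probe sequence. All 6 probes lie on chromosome 4 of the rn4 rat assembly. The probe of Klra5 lies at chr4:168746873-168746932 on the minus strand, that of Klrb1a at chr4:165637803-165637862 on the minus strand, and that of Klrd1 at chr4:166878917-166878976 on the plus strand. The probe of Klre1 spans chr4:166862168-166863136 on the plus strand. That of Klrg1 lies at chr4:158673363-158673422 and that of Klrk1 at chr4:166915175-166915234, both on the minus strand. The probes have 60 bases, of which 30 are printed here for the members and for the 3 further receptor genes they are compared with, with the longest stretch that each shares with another receptor probe in capitals.
Klra5: gctttccccCAAAGCCTGGAtgaatgtttt
Klra22: tgccaCAAAGCCTGGAggaatttgtcatat
Ly49s7: caggcAATGATTTTCtggaatcactcaaga
Klrb1a: atgggTCTGCCAAAAGGAACTAAAAtgtga
Klrb1b: atggaTCTGCCAAAAGGAACTAAAAcgaga
Klrd1: ttttatcttgCATCTGCAGgatttctgttc
Klrg1: atgtgcaaaactattCATCTGCAGaagaac
Klre1: GGATTTCTtctctttgaagtctttcttttg
Klrk1: aaagatttcattaaccgtctcACAGAAAca

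The probe of Klrb1a shared a run of 20 bases with that of Klrb1b, the longest found among the members. The printed windows were placed to show it, at bases 8 to 37 of the Klrb1a probe and 15 to 44 of the Klrb1b probe. The probe of Klra5 shared 11 bases with that of Klra22, Klrd1 and Klrg1 shared 9 with each other, Klre1 shared 8 with Klrd1, and Klrk1 shared 7 with a Ly49i7 probe. Cross-hybridization between the Klrb1a and Klrb1b probes was not tested. The annotation of the Klra5 probe lists transcripts of both Klra5 and Ly49s7, so that its value may hold RNA of either gene. The separate Ly49s7 probe, at chr4:168713691-168713750, does not contain the printed stretch of the Klra5 probe.

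Values are log2 of the normalized intensity, and a spot was called well above background by the scanner software where its signal exceeded the local background by the software's own margin. Between 74.5% and 82.7% of spots were well above background on an array, and none of the 28 arrays had a saturated spot. For 16 of the 28 samples, the column of the value table had the rank order of a scanner output deposited under another sample, and the value table was followed. Under the scanner outputs as deposited, the log2 processed signal of Klra5 ranged from 4.52 to 13.67 within T0, where 2 of 4 arrays lay below 8. Within T1 it ranged from 5.68 to 13.85. Every result against T0 over all 28 samples therefore rests on the value table's assignment. The 12 undisputed samples left 2 T0, 1 T1, 2 T2, 1 T4, 2 T8 and 4 T2_NPC arrays and no T1_NPC array, and results over these alone are given beside the main ones. The arrays lay on 7 slides scanned in 3 sessions. The transplanted groups each filled 1 slide of their own, and both were scanned in a session that held no other group, so slide and transplantation cannot be told apart.

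Klra5 was the bright member and the one with the large difference. Its values in T0 were 4.88, 6.04, 6.22 and 5.92 (5.76 ± 0.6, SD, n = 4). One week after injury they were 12.57, 13.22, 12.77 and 13.13 (12.92 ± 0.31), at 2 weeks 13.08, 12.69, 12.8 and 13.45 (13.0 ± 0.34), at 4 weeks 13.39, 13.36, 12.81 and 13.28 (13.21 ± 0.27) and at 8 weeks 13.56, 13.13, 13.51 and 13.06 (13.32 ± 0.26). Every injured array lay above every T0 array by several log2 units, and the probe was well above background on all 28 arrays, T0 included. The order of the means was T0, T2_NPC, T1_NPC, T1, T2, T4, T8, and beyond T0 the ranges of neighbours in that order overlapped.

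The log2 differences of Klra5 from T0 were 7.16 at 1 week, 7.24 at 2 weeks, 7.45 at 4 weeks and 7.55 at 8 weeks (SE 0.29 each), which correspond to 143-fold, 151-fold, 174-fold and 188-fold. Ordered by difference from T0 over all 35469 gene names, Klra5 stood at place 7 at 4 weeks, between Siglec1 (7.58) and Lilrb4 (7.35), and at place 7 at 8 weeks, between Fcrls (7.58) and Atp6v0d2 (7.31). It stood at place 22 at 1 week and at place 19 at 2 weeks. Over the undisputed samples alone the differences were 7.02, 7.19, 7.73 and 7.54, and these samples all came from 1 scan session. In the other session of the time course they were 7.06, 7.29, 7.21 and 7.56. With normexp, another background correction, they were smaller, between 5.69 and 6.01, and under the deposited sample names of the scanner outputs they were 2.24, 2.18, 4.37 and 4.09.

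**Figure D1:**
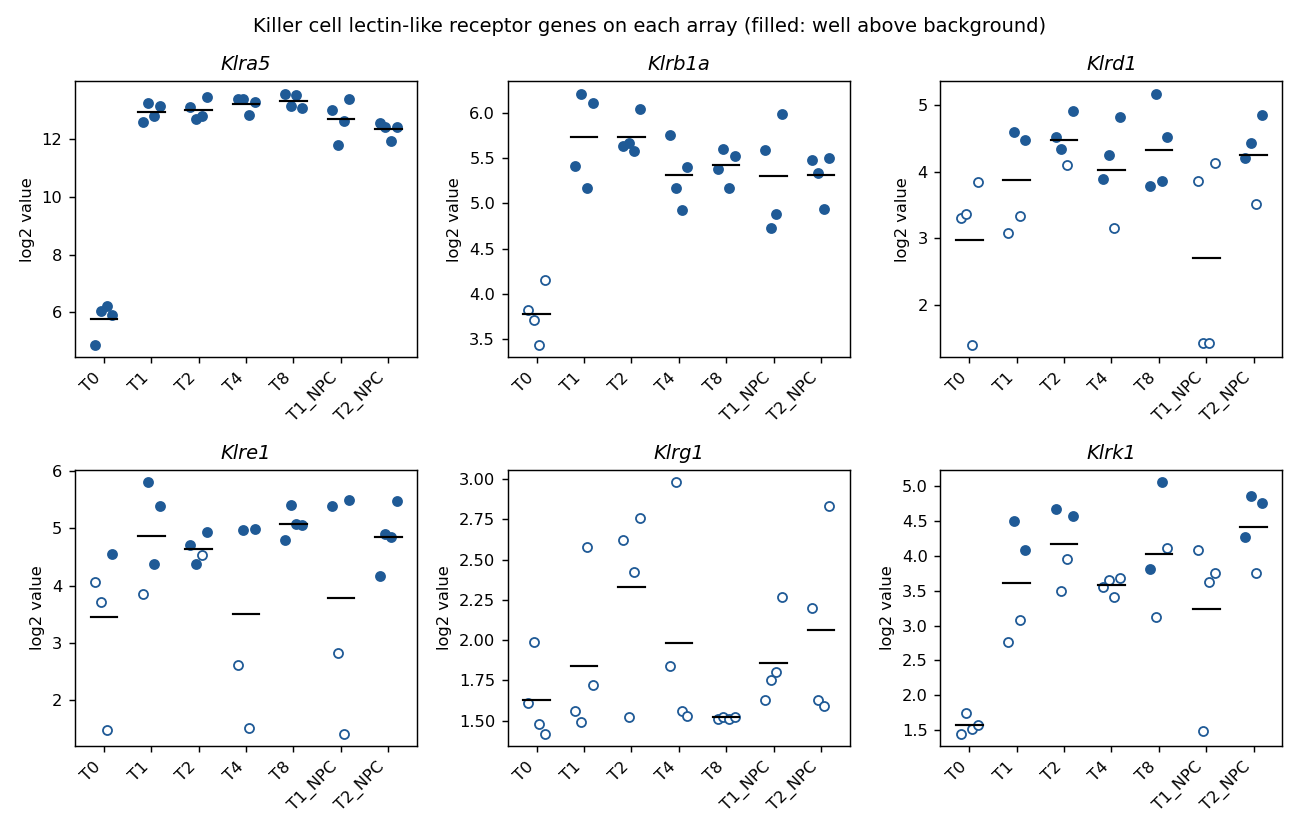
Normalized log2 values of the 6 measured members on each of the 28 arrays, by group (x axis), each panel on its own y axis. Filled points were well above background, open points were not, and bars are group means; Klra5 steps from 5.76 in T0 to 12.92 in T1, whereas Klrg1 has no filled point.

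In a bulk sample, a change in the share of cells that carry a receptor and a change in its RNA per cell cannot be told apart, which holds for every difference given here. Between 1 and 2 weeks, a contrast that did not choose Klra5, its values differed by 0.08 ± 0.29 (SE) on the log2 scale, with an adjusted p of 0.96 in the limma fit over all gene names and a 95% interval of -0.52 to 0.68. The means of successive later time points differed by 0.21 (T4 against T2) and 0.10 (T8 against T4).

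Klrb1a encodes NKR-P1A, the receptor by which rat natural killer cells are usually recognised. It measured 3.82, 3.71, 3.44 and 4.16 in T0, where it was well above background on 0 of 4 arrays. At 1 week the values were 5.41, 6.21, 5.17 and 6.11, and at 2 weeks 5.63, 5.67, 5.58 and 6.04. All 24 arrays of injured cords were well above background and all lay above the highest T0 array.

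Because T0 was not well above background, only a lower limit of the fold can be given, from the dimmest signals that were. Klrb1a was at least 3.21-fold higher at 1 week (log2 difference 1.95 ± 0.26, adjusted p = 1.5e-06, limma) and at least 3.22-fold higher at 2 weeks (1.95, adjusted p = 1.8e-06). It was at least 2.41-fold higher at 4 weeks (5.31 ± 0.35) and at least 2.59-fold higher at 8 weeks (5.42 ± 0.19). Its level did not pass the test between successive time points (0.00 from T1 to T2, -0.42 from T2 to T4 and 0.10 from T4 to T8, adjusted p = 1.0, 0.68 and 1.0, limma). Over the undisputed samples the difference was 1.78 at 1 week (adjusted p = 0.0022) and 2.00 at 2 weeks (adjusted p = 0.00051).

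Klrd1, the CD94 chain, was a dim member. It measured 3.31, 3.37, 1.4 and 3.84 in T0, with 0 of 4 arrays well above background, and 3.08, 4.6, 3.34 and 4.47 at 1 week, with 2 of 4. At 2 weeks it measured 4.52, 4.34, 4.1 and 4.91, with 3 of 4, and at 8 weeks 3.78, 5.17, 3.86 and 4.52, with 4 of 4. The 2-week arrays all lay above the T0 arrays, whereas at 1, 4 and 8 weeks the ranges overlapped with T0.

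At 2 weeks Klrd1 was at least 1.36-fold higher than in T0 (log2 difference 1.49 ± 0.59, adjusted p = 0.047, limma), whereas at 1 week the difference did not pass (adjusted p = 0.24). The 2-week call rested on all but 1 of the arrays: it was lost on leaving out any T2 array or T0 replicate 1, 2 or 3 (adjusted p from 0.053 to 0.21), and without T0 replicate 3, the dimmest, the fitted difference was 0.96. Without T0 replicate 4 it was 1.77 (adjusted p = 0.029), and over the undisputed samples it was 1.87 (adjusted p = 0.057). At 8 weeks Klrd1 was at least 1.24-fold higher than in T0, and at 4 weeks no fold can be given.

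Klre1 encodes a receptor subunit that pairs with proteins of the Klri genes. Its T0 values were 4.06, 3.71, 1.48 and 4.55, and only replicate 4 was well above background. The 1-week values were 3.86, 5.8, 4.38 and 5.39 and the 2-week values 4.71, 4.38, 4.53 and 4.93, with 3 of 4 arrays well above background in each. Both groups overlapped with T0, and neither difference passed (1.41 ± 0.81, adjusted p = 0.17, and 1.18, adjusted p = 0.27, limma).

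At 4 weeks Klre1 measured 2.61, 4.96, 1.51 and 4.98 and at 8 weeks 4.8, 5.41, 5.07 and 5.05. In the 4-week group 2 arrays lay near 5 and 2 below 3, whereas the 8-week arrays all lay close to 5 and above the highest T0 array. The differences from T0 were 0.06 at 4 weeks and 1.63 at 8 weeks, and the step from T4 to T8 (1.57, unadjusted p = 0.065) did not pass across all gene names (adjusted p = 1.0, limma).

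Klrk1, the NKG2D receptor, measured 1.45, 1.74, 1.51 and 1.57 in T0 (0 of 4 arrays well above background), 2.77, 4.51, 3.08 and 4.08 at 1 week (2 of 4) and 4.68, 3.5, 3.96 and 4.57 at 2 weeks (2 of 4). The ranges of T0 and of these injured groups did not overlap. At 4 weeks it measured 3.55, 3.66, 3.41 and 3.68 (0 of 4), and at 8 weeks 3.81, 3.12, 5.06 and 4.12 (2 of 4).

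The difference of Klrk1 from T0 passed the test at 1 week (adjusted p = 0.00088, limma) and at 2 weeks (adjusted p = 7.3e-05). Since its signals were at the edge of detection, it was at least 1.11-fold higher at 2 weeks and no fold can be given at 1, 4 and 8 weeks. Over the undisputed samples the 1-week difference did not pass (adjusted p = 0.11), where T1 had 1 array, whereas the 2-week difference did (adjusted p = 0.0067). Klrg1, an inhibitory receptor for cadherins, was not well above background on any of the 28 arrays, with group means between 1.52 and 2.33, and no fold is given for it. Its fitted differences from T0 did not pass at 1 week (adjusted p = 0.64, limma) or at 2 weeks (adjusted p = 0.084).

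Of the 5 members tested at 1 week, 2 were called higher (Klrb1a and Klrk1) and 0 lower, beside 19.1% of all 35469 gene names called higher and 25.1% called lower at an adjusted p under 0.05 (limma). At 2 weeks 3 of 5 were called higher, with Klrd1 added, beside 17.7% higher and 22.2% lower overall. At 4 and at 8 weeks the fit put 3 of 6 members past the threshold, Klra5, Klrb1a and Klrk1 in each case, beside 17.5% and 18.2% of all gene names called higher. As Klra5 was chosen in these contrasts, nothing is read from those counts. All 4 arrays of T4 lay above all 4 of T0 for Klra5, Klrb1a and Klrk1, as for 16.4% of all gene names. All 4 arrays of T8 did so for these 3 members and Klre1, as for 17.4% of all gene names. A filter on dim probes was passed by 4 of the 6 members, Klrg1 and Klrk1 being left out.

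Averaged over the 6 members, as a description, the level was 3.2 ± 0.43 (SD over arrays) for the T0 group and 5.47 ± 0.51 one week after injury, 5.72 ± 0.34 at 2 weeks, 5.27 ± 0.53 at 4 weeks and 5.61 ± 0.1 at 8 weeks. Klra5, which chose the set, carried much of this step. Without Klra5 the mean over the other 5 members was 2.68 ± 0.56 in T0 (1.86 to 3.11) and 3.68 ± 0.59 in T4 (2.91 to 4.2), and the ranges of these groups overlapped. The ranges in T1 (3.34 to 4.52), T2 (3.88 to 4.64) and T8 (3.86 to 4.16) lay above that of T0. No member that was tested between successive time points passed, and Klra5 was tested there from T1 to T2 only. The called share of all gene names was small in these steps: 1.48% from T1 to T2, 0.0761% from T2 to T4 and 0.0902% from T4 to T8.

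A further 13 gene names of the array begin with Klr or Ly49. At 1 week 7 of them were called higher and 1 lower, and at 2 weeks 10 higher and 1 lower (limma). Among all gene names 19.1% were called higher and 25.1% lower at 1 week, and 17.7% and 22.2% at 2 weeks. The median difference over the 13 was 1.39 at 1 week and 2.40 at 2 weeks, beside -0.10 and -0.06 over all gene names. As 10 of the 13 were well above background on 0 of 4 arrays in T0, these medians are of fitted values, and with such genes at the lower limit of their fold, or at 0 where none can be given, they were 0.17 and 0.18. At 4 and 8 weeks the fit put 9 higher and 1 lower in each, beside 17.5% and 18.2% of all gene names called higher. The fitted medians of the 13 were 1.88 and 1.40, and 0.0 in both with such genes at their limit. The undisputed samples alone gave 4 higher and 1 lower at 1 week, and 75th percentile scaling 6 and 1.

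Among them, 2 Ly49 genes stood beside Klra5 with large differences. Ly49s7 measured 1.46, 1.42, 2.92 and 1.51 in T0 (0 of 4 arrays well above background) and 6.47, 7.04, 6.42 and 6.84 at 1 week, at least 6.34-fold higher (adjusted p = 2.6e-11, limma). At 2, 4 and 8 weeks it was at least 7.11-fold, 8.01-fold and 7.06-fold higher than in T0. Ly49i7 measured between 1.56 and 3.37 in T0 (0 of 4) and 8.19, 8.73, 8.06 and 8.22 at 1 week, at least 19.3-fold higher (adjusted p = 3.9e-07), and between 8.74 and 9.15 at 8 weeks, at least 30.8-fold higher.

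Both Ly49 genes were thus below the detection margin in T0 and well above it on every injured array. Klrc2, an NKG2 gene, ran the other way and was well above background on all 28 arrays. It measured 7.67, 7.38, 7.82 and 7.58 in T0 and 6.73, 6.49, 6.66 and 6.55 at 1 week, 2.01-fold lower (log2 difference -1.01 ± 0.2, adjusted p = 0.00028, limma), and the ranges did not overlap. At 2 weeks its difference was -0.69 (adjusted p = 0.0089). The 1-week fall of Klrc2 was also called with 75th percentile scaling (-1.06) and with normexp (-0.54).

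Klrb1b, an inhibitory receptor, shares the long stretch printed above with Klrb1a. It measured 4.13, 4.36, 4.09 and 4.22 at 1 week against 1.3 to 2.25 in T0 (0 of 4 arrays well above background), at least 1.13-fold higher (adjusted p = 7.4e-05, limma). At 2 weeks its arrays spread from 1.42 to 4.45, while Klrb1a kept within 5.58 to 6.04. Klrc3, another NKG2 gene, whose 2 probes also match Klrc1 transcripts in the annotation, measured 3.46, 5.38, 2.82 and 4.75 at 1 week against 1.38 to 1.53 in T0 (0 of 4), at least 1.06-fold higher (adjusted p = 0.0018).

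From 1 to 2 weeks 3 further receptor genes rose: Klra2 by 1.79 (adjusted p = 0.0053, limma), Ly49i2 (adjusted p = 0.036) and Ly49i4, which was at least 1.1-fold higher (adjusted p = 0.0061). Between these times 1.48% of all gene names were called in either direction. Klra2 measured 5.28 to 5.68 at 1 week and 7.05 to 7.59 at 2 weeks, with no overlap. Ly49i2 and Ly49i4 were at the edge of detection at 1 week, with 1 and 0 of 4 arrays well above background, and Ly49i2 went from a mean of 3.44 to 5.92, with 4 of 4 at 2 weeks. From T2 (2 of 4) to T4 (0 of 4) Ly49i4 then fell, being at least 1.1-fold lower (adjusted p = 0.025). These calls were lost over the undisputed samples, where the rises had adjusted p of 0.096 for Klra2, 0.18 for Ly49i2 and 0.48 for Ly49i4, and the fall of Ly49i4 had 0.86. With normexp the calls of Ly49i2 and Ly49i4 were lost too (adjusted p = 0.095 and 0.12 for the rises, 0.4 for the fall). Klra22 (adjusted p = 0.2 and 0.055 at 1 and 2 weeks) did not pass, and Klrh1 was not well above background on any array.

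**Figure D2:**
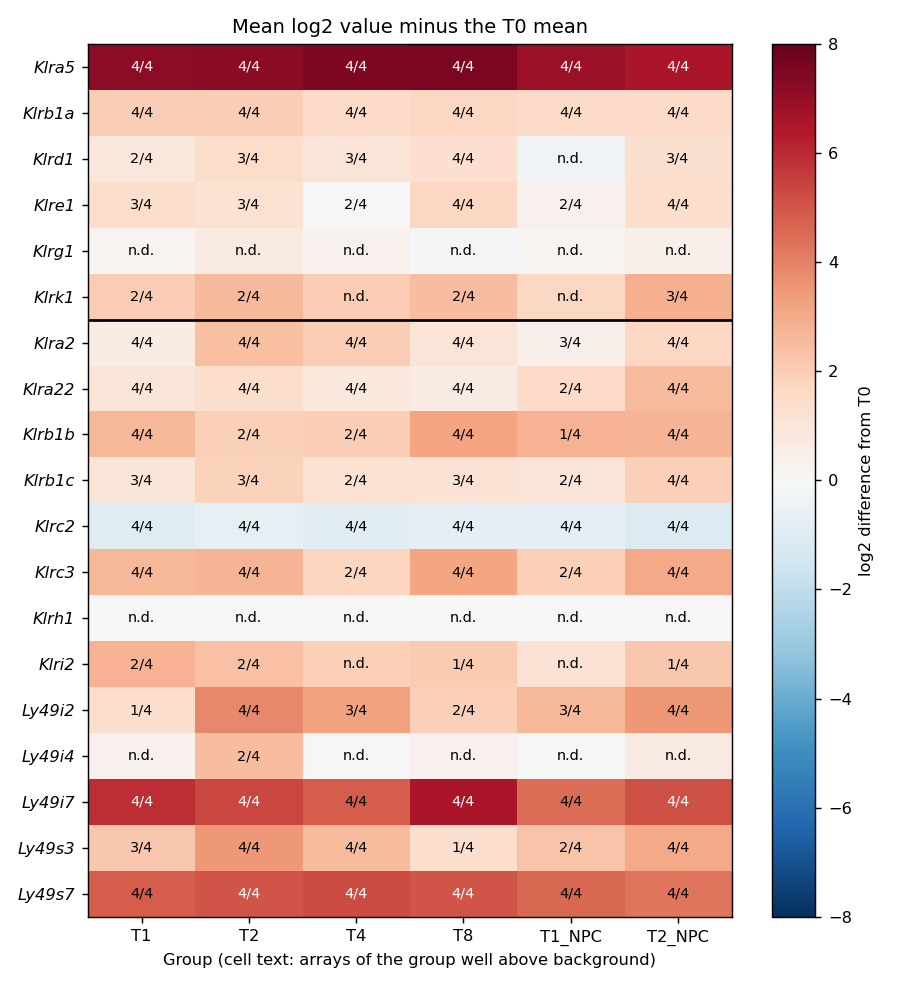
Mean log2 value of each group minus the T0 mean (colour) for the 6 members, above the line, and the 13 further Klr and Ly49 genes. Each cell gives how many of the 4 arrays were well above background, n.d. marks 0 of 4 and no fold is read from such cells, and 10 of the 13 further genes were at 0 of 4 in T0; Klra5, Ly49i7 and Ly49s7 stand out in red and Klrc2 is the gene in blue.

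The T4 arrays differed among themselves in these genes. Besides Klre1 (2.61, 4.96, 1.51 and 4.98), Klrc3 measured 2.34, 3.62, 1.97 and 4.71 and Ly49i7 5.68, 8.5, 5.67 and 9.32, with replicates 2 and 4 above replicates 1 and 3 in each. Klra2 measured 7.46, 6.24, 7.41 and 6.36, Ly49i2 6.89, 3.43, 6.29 and 4.37 and Ly49s3 5.4, 3.93, 5.21 and 4.75, with replicates 1 and 3 above replicates 2 and 4. Klra5 and Ly49s7 did not show such a split. The 6 genes were picked after their values were seen, so the pattern is a description of 4 animals. Replicates 1, 2 and 3 came from 1 scan session on 3 slides and replicate 4 from another session, and over 25 natural killer and cytotoxic genes the mean level was 4.13, 4.04, 4.10 and 4.27.

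**Figure D3:**
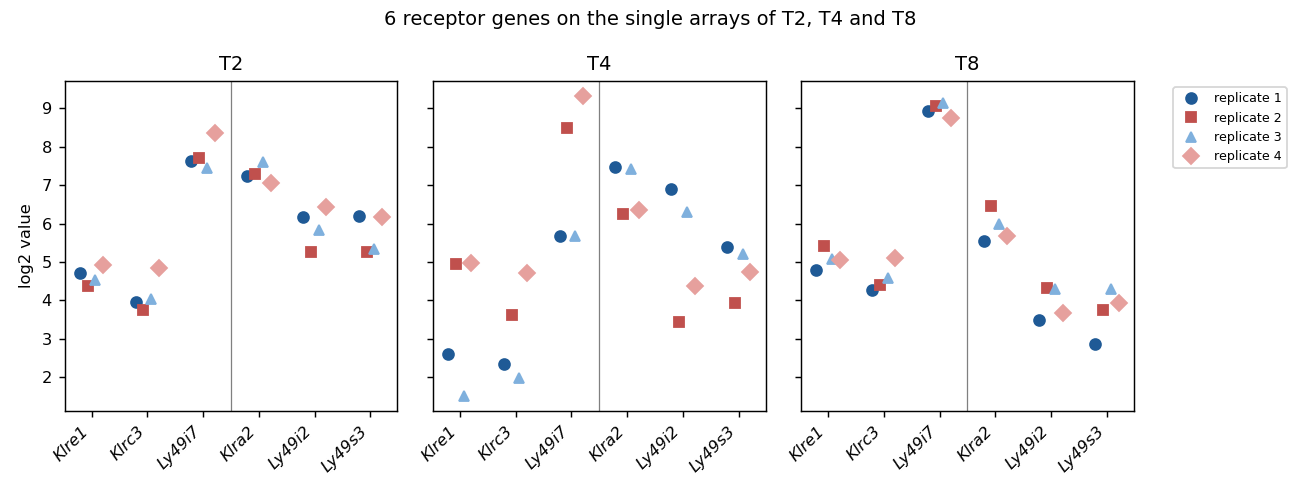
Normalized log2 values (y axis) of 6 receptor genes on the 4 arrays of T2, T4 and T8, with a symbol for each replicate. In T4 replicates 2 and 4 lie above replicates 1 and 3 for Klre1, Klrc3 and Ly49i7 and below them for Klra2, Ly49i2 and Ly49s3. The range of Ly49i7 is 3.64 in T4, 0.91 in T2 and 0.4 in T8.

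Transplantation of NPCs left Klra5 high. In T1_NPC it measured 12.98, 11.79, 12.62 and 13.39 (12.69 ± 0.68) beside 12.57 to 13.22 in T1, and the ranges overlapped (log2 difference -0.23 ± 0.29, adjusted p = 0.66, limma, 95% interval -0.83 to 0.37). In T2_NPC it measured 12.54, 12.41, 11.93 and 12.41 (12.32 ± 0.27), and all 4 arrays lay below all 4 T2 arrays (12.69 to 13.45), as was the case for 9.4% of all gene names. The difference of -0.68 ± 0.29 did not pass across all gene names (unadjusted p = 0.027, adjusted p = 0.14, limma, 95% interval -1.28 to -0.08).

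Over the undisputed samples the T2_NPC difference of Klra5 was -0.42 (adjusted p = 0.43), with 2 arrays in T2. Under the deposited sample names of the scanner outputs it turned to 1.17 (adjusted p = 0.78). Over the other alternatives the adjusted p lay between 0.074 and 0.43. The transplantation effects at 1 and 2 weeks differed by -0.45 ± 0.41 (adjusted p = 0.73, limma). Ly49s7 also had all 4 T2_NPC arrays (5.70 to 6.47) below all 4 T2 arrays (6.48 to 7.27), by 0.71 on the log2 scale, without passing the test (adjusted p = 0.18).

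For the other members except Klrb1a the intervals were wider than those of Klra5. Klrb1a differed by -0.43 ± 0.26 in T1_NPC (adjusted p = 0.29, limma, 95% interval -0.96 to 0.1) and by -0.42 in T2_NPC (adjusted p = 0.34, -0.95 to 0.12). Klrd1 measured 3.86, 1.42, 1.42 and 4.13 in T1_NPC, where 0 of 4 arrays were well above background, and the difference from T1 did not pass (adjusted p = 0.21). In T2_NPC it measured 4.21, 4.43, 3.51 and 4.85, with a difference of -0.22 (adjusted p = 0.87).

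Klre1 measured 5.39, 2.82, 1.42 and 5.49 in T1_NPC (-1.08, adjusted p = 0.42, limma) and 4.16, 4.89, 4.84 and 5.48 in T2_NPC (0.21, adjusted p = 0.92). Klrk1 measured 4.09, 1.49, 3.63 and 3.76 in T1_NPC (-0.37, adjusted p = 0.66) and 4.27, 4.87, 3.76 and 4.76 in T2_NPC (0.24, adjusted p = 0.82). Thus 0 of 6 members were called in either transplantation comparison or in the difference between them, beside 11.9%, 9.47% and 0.299% of all gene names. The intervals of Klrd1, Klre1 and Klrk1 reached beyond 1 log2 unit on at least 1 side in T1_NPC and in T2_NPC. That of Klra5 did so in T2_NPC, so differences of that size are not excluded for these members.

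**Figure D4:**
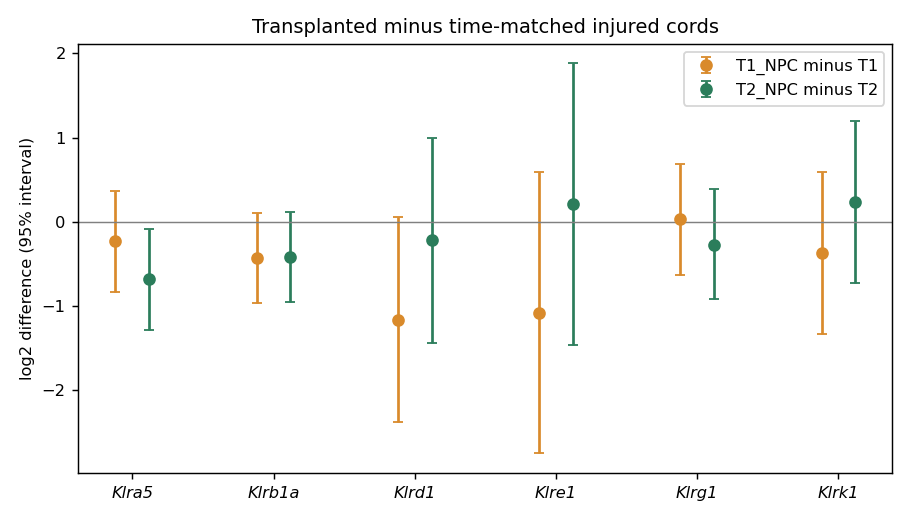
Log2 difference (y axis) of each member between transplanted and time-matched injured cords, with the 95% interval of the limma fit (4 arrays per group). The interval of Klra5 in T2_NPC, from -1.28 to -0.08, is the one that does not reach 0, and that of Klre1 in T1_NPC, from -2.75 to 0.59, is among the wide ones.

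In T1_NPC, replicates 1 and 4 were high and replicates 2 and 3 low for Klrd1, Klre1, Klrc3 (4.47, 2.22, 1.49 and 5.28) and Ly49i7 (7.6, 5.22, 5.86 and 8.81). These genes were picked after their values were seen. The mean level of the 25 natural killer and cytotoxic genes on the same arrays was 4.59, 3.47, 3.84 and 4.75, and that of 14 T cell markers 6.97, 5.56, 6.68 and 7.23. Of all spots on the same arrays, 75.9%, 74.5%, 75.1% and 76.4% were well above background, beside 79.0% to 81.9% on the T1 arrays. The part of natural killer cells, T cells or detection in the spread of the members was not tested. Among the 13 further receptor genes, Klri2 was called lower in T1_NPC than in T1 (adjusted p = 0.042, limma), with 0 and 2 of 4 arrays well above background. The dimmest signals well above background lay between 4.21 and 4.44 on the T1_NPC arrays and between 3.39 and 3.98 on the T1 arrays. Detection counts in T1_NPC, that of Klrd1 included, are therefore not on equal terms with those in T1. Ly49i4 was called lower in T2_NPC than in T2 (adjusted p = 0.0062), also with 0 and 2 of 4, and no fold can be given for either. These single calls, 1 of 13 in each comparison, stand beside 11.9% and 9.47% of all gene names called in either direction. With 75th percentile scaling the Klri2 call was lost (adjusted p = 0.15), and over the undisputed samples that of Ly49i4 (adjusted p = 0.1).

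The genes whose pattern over the 28 arrays was most like that of a member were looked up among 10808 gene names. These were gene symbols other than the members, without accession, clone or probe names, and well above background on all arrays of at least 1 group. For Klra5 the leading gene was Ly49s7 (Pearson r = 0.987 over 28 arrays and 0.933 over the 24 injured arrays), followed by Tax1bp3 (0.986 and 0.786) and Mdfic (0.984 and 0.682). The correlations over 28 arrays share the step from T0 to injury, and over the injured arrays of these 3 Ly49s7 alone stayed above 0.9. The Klra5 and Ly49s7 values are not independent where the Klra5 probe takes up Ly49s7 RNA.

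**Figure D5:**
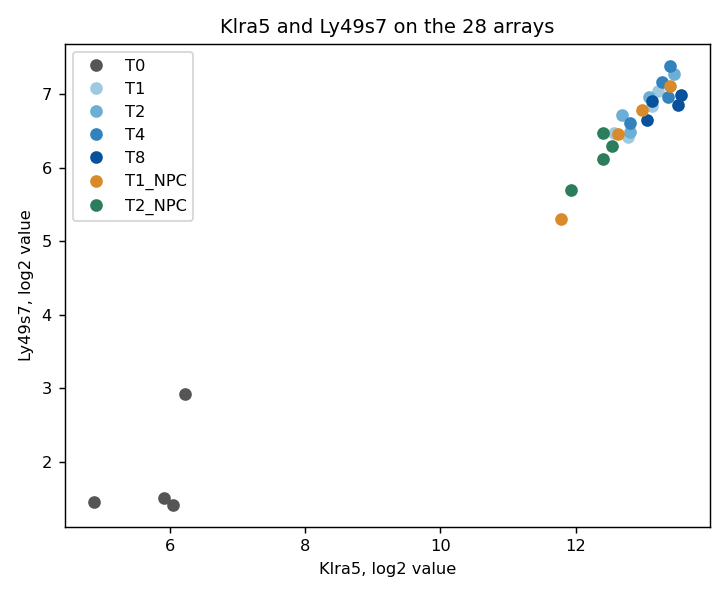
Ly49s7 (y axis) against Klra5 (x axis), normalized log2 values on the 28 arrays, coloured by group. The T0 arrays lie apart at the lower left, and within the 24 injured arrays the values rise together (r = 0.933), with T1_NPC replicate 2 lowest on both axes.

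For Klrb1a the leading genes were Gucy2c (r = 0.944 over 28 arrays and 0.812 over 24), Mical1 (0.932 and 0.732) and Ada (0.93 and 0.775). For Klrd1 they were Gzmk, a granzyme of cytotoxic lymphocytes (0.797 and 0.853), Ccl5, a chemokine (0.785 and 0.859) and Ptn (0.778 and 0.767). For Klre1 they were Klrc3 (0.791 and 0.913), Prf1, which encodes the pore-forming perforin (0.669 and 0.709), and Igfbp5 (0.665 and 0.659). For Klrk1 they were Zbp1 (0.934 and 0.854), Lgals3bp (0.932 and 0.864) and Usp18 (0.931 and 0.838). Klrd1 and Klre1 thus had cytotoxic genes among their nearest neighbours, whereas those of Klra5, Klrb1a and Klrk1 included none from the list of such genes. The values of Klrg1 were below the detection margin, and its nearest gene, Hbp1, reached 0.573.

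Of 25 measured natural killer and cytotoxic genes, 7 were called higher and 2 lower at 1 week (median difference 0.21), and 11 higher and 1 lower at 2 weeks (median 0.76, limma). In the undisputed samples alone 3 were called higher at 1 week and 6 at 2 weeks. At 4 and 8 weeks 8 of the 25 were higher and 1 lower in each. Over all gene names 19.1% were called higher and 25.1% lower at 1 week, and 17.7% and 22.2% at 2 weeks. The shares called higher at 4 and 8 weeks were 17.5% and 18.2%. Ncr1, the defining receptor of natural killer cells, was well above background on 0 of 4 arrays in T0, T1, T2 and T4 and on 1 of 4 in T8 (adjusted p at 1 week 0.14). Ctsw, a protease of cytotoxic lymphocytes, was at least 2.0-fold higher at 1 week (adjusted p = 1.3e-05), Cd244 at least 2.86-fold (adjusted p = 0.00028) and Cd2 at least 1.92-fold (adjusted p = 0.0026, 0.061 over the undisputed samples). Gzma, a granzyme, fell by 1.18 (adjusted p = 0.0065), and Prf1 differed by 0.37 (adjusted p = 0.59).

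Of 15 measured adaptor, kinase and phosphatase genes through which such receptors signal, 11 were called higher and 1 lower at 1 week (median 2.41), and 9 higher and 1 lower at 2 weeks (median 1.88, limma). The called shares of all gene names were 19.1% higher and 25.1% lower at 1 week, and 17.7% and 22.2% at 2 weeks. Tyrobp, which encodes the adaptor DAP12, was 5.87-fold higher at 1 week (log2 difference 2.55 ± 0.14, adjusted p = 1e-12), Fcer1g 8.84-fold (adjusted p = 4.1e-12), the kinase gene Syk 16.1-fold (adjusted p = 8.1e-10) and Vav1 17.7-fold (adjusted p = 7.8e-09). Of the phosphatase genes of the inhibitory arm, Ptpn6 was 7.62-fold (adjusted p = 3.2e-14) and Inpp5d 5.3-fold higher (adjusted p = 3.4e-08), whereas Ptpn11 fell by 0.51 (adjusted p = 0.0092). Macrophages and microglia also express many of these genes.

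Of 27 listed ligand genes 11 were measured, and 6 were called higher and 1 lower at both 1 and 2 weeks (medians 1.0 and 1.08, limma). Beside them, 19.1% of all gene names were called higher and 25.1% lower at 1 week, and 17.7% and 22.2% at 2 weeks. Of the MHC class I genes, 3 heavy chain genes were higher at 1 week together with the light chain gene, RT1-A2 by 2.25 (adjusted p = 1.7e-06), RT1-A3 by 2.30 (adjusted p = 8e-05), RT1-S3 by 1.44 (adjusted p = 0.00022) and B2m by 1.00 (adjusted p = 2.3e-08). The heavy chain genes RT1-CE10 (0.18, adjusted p = 0.92), RT1-T24-1 (0.20, adjusted p = 0.77) and RT1-N1 (-0.09, adjusted p = 0.91) did not pass, and the one gene called lower was Cdh2, an N-cadherin gene (-0.37, adjusted p = 0.029). Clec2d, which encodes a ligand of NKR-P1 receptors, was higher by 1.22 (adjusted p = 0.0022), a call lost with normexp (0.22, adjusted p = 0.093), with the brightest probe of each gene (0.33, adjusted p = 0.18) and over the undisputed samples (adjusted p = 0.092). Cdh1, E-cadherin and a ligand of KLRG1, was higher by 4.93 at 1 week (adjusted p = 7.7e-07) and by 6.61 at 2 weeks (adjusted p = 1.2e-08), while Klrg1 itself was below the detection margin throughout. The Raet1 and Ulbp1 genes of the list, which encode ligands of NKG2D, had no gene name on the array.

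Markers of other cells moved at the same time as the members. The counts that follow stand beside 19.1% of all gene names called higher and 25.1% called lower at 1 week. Of 14 microglia and macrophage markers 13 were called higher and 0 lower at 1 week (median 3.19, limma), and the list mean went from 8.96–9.43 in T0 to 12.37–12.87 in T1, with Cd68 up by 7.05 (adjusted p = 4e-19). Of 14 T cell markers 11 were higher and 0 lower (median 1.51), with Cd8b up by 5.81 (adjusted p = 2.3e-10) and Cd3e at least 1.02-fold higher (adjusted p = 8.8e-05, 0.13 with normexp). Of 7 B cell and plasma cell markers 3 were higher and 0 lower, of 7 dendritic cell markers 2 and 2, and of 11 neutrophil and mast cell markers 4 and 0. Of 13 markers of neurons and glia of the spinal cord, 1 was higher and 8 lower (median -0.94), with a list mean of 12.2–12.42 in T0 and 11.2–11.55 in T1. The natural killer and cytotoxic list mean lay at 3.57–3.63 in T0 and 3.83–4.51 in T1. The part of any of these cells in the levels of Klra5 or the other members was not tested.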

How the data were processed

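Members, lists and tests were chosen with earlier results of these data known. The authors scanned Cy3-labelled cRNA on Agilent whole rat genome arrays with Feature Extraction 10.7.1.1. They deposited the background-corrected intensity of each spot and a value table of quantile-normalized log2 values, which was used here as the authors made it. All 28 samples had their groups from the labels.

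Replicate spots (43379 without controls) were collapsed to 41012 probes, and probes to 35469 gene names, with no filter on dim probes. Group means were estimated in 1 linear model over the 28 arrays (limma 3.58.1, R 4.3.3), with Benjamini-Hochberg adjusted p under 0.05 (two-sided). Tables and plots used Python 3.11.15, numpy 2.4.6, pandas 2.3.3 and matplotlib 3.10.9. A group with 0 arrays well above background gives only a bound, from the lowest signal well above background on each array, which lay between 3.30 and 4.49 (log2). These flags, slides and scan sessions came from the scanner output whose rank order matched the value column (Spearman correlation 1.0, the next best at most 0.9926). Probe sequences and rn4 positions came from the deposited array annotation.

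Named are all members, list genes that were well above background in a group and defining markers, and, for likeness, the 3 most correlated genes of each member. Further Klr and Ly49 genes formed 1 list. In simulated T1 and T0 arrays over 35469 gene names, the fit called 56% of 2-fold and 89% of 4-fold changes among 200 changed genes, with 5.84% of calls false. The measured T1 minus T0 comparison had 6772 gene names called higher and 8885 lower, so these rates need not hold for it. The number of arrays limits the precision. Same-numbered arrays of different groups did not deviate together (84 pairs, correlation from -0.339 to 0.297, 19 over 0.1), so numbers only name samples. Alternatives changed the source of the values, the scaling, background correction, dim probes, probe summary, model, slide, scan session and replicate blocks, a fold minimum, and the arrays included.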

Additional observations from a re-analysis of the deposited data

Results flagged for a closer look

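In T1_NPC, Klrc2 measured 7.76 in replicate 2, while the other 3 arrays lay between 6.42 and 6.61. The gap was 0.859 of the range of the group, above Dixon's 95% critical value for 4 samples. Of 97 combinations of a receptor gene and a group that were screened, 1 stood out in this way, and chance alone marks about 1 in 20.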

How the results depend on the processing

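When each scanner output kept the sample name it was deposited with, the number of members called fell to 0 at T1, T2, T4 and T8 against T0, and 0 or 1 of all gene names were called in each, and the Klra5 difference between T2_NPC and T2 turned to 1.17. The undisputed samples alone left 1 T1 array, so no count is given for them. With the slide as a fixed block, 4 of the 5 members other than Klra5 were called at T1. The dim-probe filter left 1 of 3 at T1. Scaling to the 75th percentile, which moved the median of all gene names in T1 minus T0 from -0.099 to -0.275, called 1 member (Klrg1, below background) in T1_NPC minus T1 and 1 in the difference of the transplantation effects. Klrb1a at 1 and 2 weeks passed in every alternative except the deposited sample names (other adjusted p from 8.8e-08 to 0.0022 and from 1.1e-07 to 0.00051). For Klrk1 the ranges were 0.00016 to 0.11 at 1 week and 6.1e-06 to 0.0067 at 2 weeks, and for Klrd1 at 2 weeks 0.0024 to 0.21. With normexp, Klrd1 at 2 weeks was no longer called (adjusted p = 0.12). Leaving out 1 array at a time gave 2 members at T1 and 2 to 3 at T2. It gave 0 between successive time points, in the transplantation comparisons and in their difference. With the replicate block, 2 members were called at T1 and 3 at T2, and it moved no member's call there. Counts at T4 and T8 under these alternatives are not given, as Klra5 was chosen in those contrasts. Apart from the deposited sample names, the called shares of all gene names are not given here. Nothing is therefore read from the size of these counts. Slide and session could not be fitted as fixed blocks for the transplantation comparisons. Signals near background limit Klrd1, Klre1, Klrg1 and Klrk1.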

Other observations

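Klra22, which shares part of its probe sequence with Klra5, measured 8.9 in T2_NPC replicate 1, while the other 3 arrays of the group lay between 5.24 and 5.99. Klra5 on the same array was 12.54, beside 11.93 to 12.41 on the others. Within the cytotoxic genes, Gzmc was at least 2.94-fold higher at 2 weeks (4 of 4 arrays well above background) than at 1 week (0 of 4, adjusted p = 0.031, limma), and Gzmm higher at 8 weeks than at 4 weeks by 1.47 (adjusted p = 0.031). Neither passed over the undisputed samples (adjusted p = 0.31 for Gzmc and 0.93 for Gzmm).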
